A study of Homo sapiens with 6 samples.

Results

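The expression of 10 genes of the NF-kB system was compared between thyroid cancer cells with and without overexpression of *RRM2*. The 10 members are the 5 DNA-binding subunits *NFKB1*, *NFKB2*, *RELA*, *RELB* and *REL*, and the feedback genes *NFKBIA*, *NFKBIZ*, *TNFAIP3*, *BIRC3* and *TRAF1*. They were taken by symbol from a table of 58735 genes, of which 13621 were abundant enough to be tested. All 10 members were among these, each above the minimum in all 6 libraries. Of the 10, *TRAF1* and *TNFAIP3* were more than doubled in the cells with overexpression, *NFKB2*, *RELB* and *BIRC3* were higher by smaller amounts, *NFKBIZ* was slightly lower, and *NFKB1*, *RELA*, *REL* and *NFKBIA* did not pass the test. Over all tested genes 67.6% passed it, and the calls of *NFKBIZ* and *BIRC3* were lost when certain single libraries were left out.

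The first group held 3 libraries of the wild strain of TPC-1, a line of human papillary thyroid carcinoma cells. The second group held 3 libraries of *RRM2*-OE-TPC-1, the same line after infection with the lentivirus LV18, in which the CMV promoter drives full-length *RRM2*, and after selection with puromycin. *RRM2* encodes the small subunit of ribonucleotide reductase. All cells were grown in RPMI 1640 with fetal bovine serum, and according to the methods each line was sequenced in biological triplicate. No library of cells with an empty vector was analysed here, so *RRM2*, infection and selection cannot be told apart. In the genotype label, replicates 2 and 3 of *RRM2*-OE-TPC-1 read RRM3 and RRM4, whereas the titles of all 3 read RRM2, and the groups follow the titles. As background, NF-kB is a family of dimeric transcription factors. In resting cells, IkB proteins such as the product of *NFKBIA* hold the dimers in the cytoplasm. Signals from TNF, IL-1 and Toll-like receptors act through adaptors, ubiquitin ligases and the IKK kinase complex, which marks IkB for destruction and releases RelA and p50. A second, slower route processes the *NFKB2* product to p52, the usual partner of RelB. Released dimers bind kB motifs, and among the genes they induce are their own inhibitors, which ends the response.

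The kB motif is shown here because 7 of the 9 members with a promoter window in RefSeq hold it. Windows ran from 250 bases before to 50 bases after each annotated start on GRCh38.p14, both strands were searched, and overlapping matches were joined. *RELB* was not matched. Over all 35116 windows, 11.3% held the motif, and 13.3% of all genes held it in at least 1 window. Of the 9521 tested genes with a window it was 17.4%, and of the 33 induced genes with a window, a list described below, 18 held it. Too few of the 13621 tested and the 45 induced genes were matched to a window for these shares to serve as a comparison. No match was found in the windows of *RELA* and *TRAF1*. A match is a description of the sequence only, since binding was not measured in these libraries. Below, the strand is that of the gene, capitals mark the motif, and not every site of a gene is printed. Each start is that of a RefSeq window and can differ from the gene start given further below. Both printed *NFKB2* sites precede later starts and lie inside the gene, and the window at its first start held no match. The printed sites of *TNFAIP3* and *REL* also lie just inside the gene by its coordinates.

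NFKB1, chr4:102501300-102501329, plus strand, site 49 bases before the start: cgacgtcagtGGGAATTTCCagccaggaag
NFKB2, chr10:102394462-102394491, plus strand, 107 bases before the start: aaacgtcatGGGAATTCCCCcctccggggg
NFKB2, chr10:102395674-102395703, plus strand, 21 bases before another start: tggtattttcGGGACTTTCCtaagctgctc
REL, chr2:60881518-60881547, plus strand, 47 bases before the start: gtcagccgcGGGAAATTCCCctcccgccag
NFKBIZ, chr3:101827757-101827786, plus strand, 223 bases before the start: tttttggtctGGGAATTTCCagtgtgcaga
TNFAIP3, chr6:137867188-137867217, plus strand, 67 and 55 bases before the start: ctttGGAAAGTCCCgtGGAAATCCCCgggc
BIRC3, chr11:102317275-102317304, plus strand, 199 bases before the start: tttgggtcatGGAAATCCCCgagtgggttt
BIRC3, chr11:102317339-102317368, plus strand, 135 bases before the start: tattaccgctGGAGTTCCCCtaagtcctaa

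Longer stretches before the gene are given for *NFKBIA*, the classical feedback inhibitor, and for *TRAF1*, the member with the largest difference. The *NFKBIA* stretch, chr14:35404750-35404999 on the minus strand, holds the motif 81 bases before the start, and the *TRAF1* stretch, chr9:120929174-120929421 on the minus strand, holds none.

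NFKBIA: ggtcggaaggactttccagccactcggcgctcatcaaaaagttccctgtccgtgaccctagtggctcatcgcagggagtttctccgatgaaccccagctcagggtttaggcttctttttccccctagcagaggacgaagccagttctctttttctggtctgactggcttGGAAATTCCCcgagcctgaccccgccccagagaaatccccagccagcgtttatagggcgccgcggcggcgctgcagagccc
TRAF1: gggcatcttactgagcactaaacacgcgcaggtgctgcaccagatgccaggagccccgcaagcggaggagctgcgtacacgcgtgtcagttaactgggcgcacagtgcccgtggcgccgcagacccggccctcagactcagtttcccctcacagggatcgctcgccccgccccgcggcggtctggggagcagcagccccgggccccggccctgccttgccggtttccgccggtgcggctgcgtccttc

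The libraries held between 14317091 and 17084067 reads on genes, recovered from the deposited FPKM, fragment counts scaled by gene length and depth. *RRM2* was at 8.52 to 9.17 FPKM in TPC-1 and at 47.2 to 50.4 FPKM in *RRM2*-OE-TPC-1. Of 8 thyroid markers, *PAX8*, *FOXE1* and *HHEX* were expressed in both groups, *PAX8* and *FOXE1* lower (log2 fold change -0.24 and -0.42) and *HHEX* higher (0.87) in *RRM2*-OE-TPC-1, whereas *TG*, *TSHR* and *SLC5A5* stayed under 0.5 FPKM and *NKX2-1* was listed at 0. All 9 immune cell markers stayed under 0.5 FPKM, with *CD3E*, *MS4A1* and *LYZ* at 0 in all libraries, and their summed level was 0.431 to 0.701 FPKM in TPC-1 and 0.172 to 0.336 FPKM in *RRM2*-OE-TPC-1. Of 7 fibroblast and endothelial markers 5 stayed under 0.5 FPKM, 2 of these (*COL1A2* and *DCN*) at 0. The other two were low as well, *COL1A1* with means of 0.816 and 0.501 FPKM and *PECAM1* with 0.924 and 0.0588 FPKM, and the summed levels were 1.62 to 1.93 and 0.497 to 0.675 FPKM. The summed level of 6 epithelial markers was 42.9 to 47.1 FPKM in TPC-1 and 88.4 to 90.8 FPKM in *RRM2*-OE-TPC-1, with *KRT19*, *EPCAM* and *CDH1* under 0.5 FPKM throughout. Nearly all of this sum was *KRT18*, with means of 41.2 and 85.2 FPKM, while *KRT7* had 1.18 and 1.01 FPKM. The part of these shifts in the differences below was not tested, and in bulk RNA a change in the share of cells and a change in RNA per cell cannot be told apart.

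FPKM is scaled per length, so levels of the members can be ranked. In TPC-1 the highest means were those of *NFKB2*, *NFKBIZ*, *RELA* and *NFKBIA*, from 18.8 down to 16.0 FPKM, and neighbours among these 4 overlapped. *NFKB1* (13.7 FPKM), *RELB* (12.7 FPKM) and *BIRC3* (7.75 FPKM) followed, each separated from the next. *REL*, *TRAF1* and *TNFAIP3*, at 0.869, 0.820 and 0.808 FPKM, formed the bottom of the order, with overlapping ranges. In *RRM2*-OE-TPC-1 the order at the bottom was resolved, with *TRAF1* at 2.82, *TNFAIP3* at 2.06 and *REL* at 0.852 FPKM and no overlap between neighbours. The place of *REL* is uncertain in both groups, since its exons overlap another gene on the same strand, as described below. *NFKB2* stood first in both groups. In *RRM2*-OE-TPC-1 it was followed by *RELA*, then by *NFKBIZ*, *RELB* and *NFKBIA*, whose neighbours overlapped, then by *NFKB1* and *BIRC3*.

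**Figure D1:**
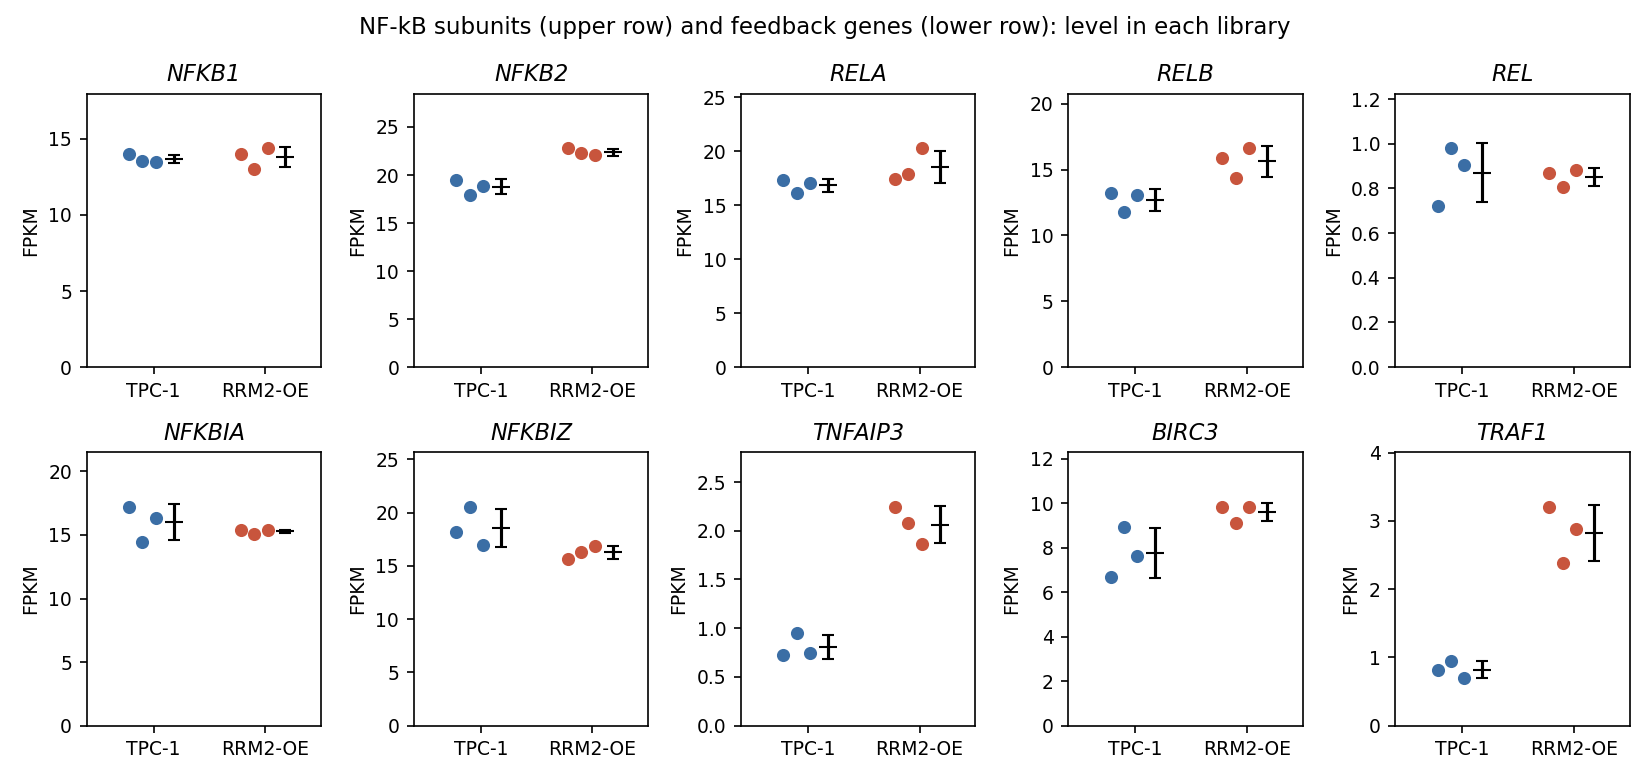
FPKM of the 10 members, a panel each with its own linear axis from 0, with a point for each library of TPC-1 (blue) and *RRM2*-OE-TPC-1 (red) and, in black, each group mean with its SD. *TRAF1* and *TNFAIP3* are the members whose groups stand farthest apart, at 0.701 to 0.95 against 2.38 to 3.21 FPKM and 0.724 to 0.954 against 1.86 to 2.25 FPKM.

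The comparison was made with limma on log2(FPKM + 0.1), and p-values were adjusted over all 13621 genes. Fold changes on this scale understate the change of genes with low values. "Rose" and "fell" are used where the adjusted p was 0.05 or less, and a gene passed both thresholds where its log2 fold change was also at least 1 in size. Of the 10 members 2 passed both thresholds, both higher in *RRM2*-OE-TPC-1, while 11.5% of all tested genes passed both, 4.48% higher and 6.97% lower. At the adjusted p alone, 6 of 10 members passed, below the 67.6% of all tested genes. Of these, 5 were higher (34.9% of all genes) and 1 was lower (32.7%). The groups did not overlap for 7 of 10 members, against 72.2% of all genes. The median log2 fold change of the members was 0.19 and that of all genes 0.01, and the median absolute values were 0.22 and 0.37. By these counts the members changed about as often as tested genes in general. Each p-value weighs the group difference against the spread between these 3 libraries a group, drawn toward that of genes of similar level. This spread may be technical in part, and with 3 libraries a side no exact permutation p can be lower than 0.1.

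*TRAF1* (ENSG00000056558, chromosome 9 from 120902393 to 120929173) encodes an adaptor that binds TRAF2 and cIAP proteins at TNF-family receptors. Its FPKM was 0.808, 0.95 and 0.701 in the TPC-1 libraries and 3.21, 2.38 and 2.88 in the *RRM2*-OE-TPC-1 libraries. Every *RRM2*-OE-TPC-1 library was above every TPC-1 library, and the distance between the groups exceeded the range within either. The means were 0.820 ± 0.125 and 2.82 ± 0.417 FPKM (SD, n = 3 each), a ratio of 3.44. *TRAF1* rose by a log2 fold change of 1.67 (95% confidence interval 1.32 to 2.01, limma adjusted p = 2.43e-05). The values rest on 72 to 103 reads a library in TPC-1 and 263 to 299 in *RRM2*-OE-TPC-1. In absolute log2 fold change, *TRAF1* exceeded 96.7% of tested genes.

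*TNFAIP3* (ENSG00000118503, chromosome 6 from 137867188 to 137883312) encodes A20, an enzyme that edits ubiquitin on signalling adaptors and shuts off the route to IKK. It was at 0.724, 0.954 and 0.745 FPKM in TPC-1 and at 2.25, 2.08 and 1.86 FPKM in *RRM2*-OE-TPC-1. Again the lowest *RRM2*-OE-TPC-1 library lay above the highest TPC-1 library. The means were 0.808 ± 0.127 and 2.06 ± 0.192 FPKM (SD, n = 3 each), a ratio of 2.56. The log2 fold change was 1.26 (95% confidence interval 0.94 to 1.58, limma adjusted p = 7.76e-05), and 60 to 81 reads a library in TPC-1 stood against 150 to 180 in *RRM2*-OE-TPC-1. An exon of *AL357060.1* on the opposite strand, at 0.107 FPKM, covers 95 bases of the gene, and whether counting used strand is not stated. *TNFAIP3* holds 2 kB motifs in its promoter window and *TRAF1* none in its windows, and sites outside the windows were not searched. With a pseudocount of 1, the log2 fold change of *TNFAIP3* was 0.76 and only *TRAF1*, at 1.07, passed both thresholds.

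Among the subunits, *NFKB2* and *RELB*, the pair of the slower route, rose at the level of RNA. Neither protein nor the processing of the *NFKB2* product to p52 was measured, so the activity of that route was not tested. *NFKB2* (ENSG00000077150, chromosome 10 from 102394110 to 102402529), which encodes the p100 precursor of p52, was at 19.5, 17.9 and 18.9 FPKM in TPC-1 and at 22.8, 22.3 and 22.05 FPKM in *RRM2*-OE-TPC-1. *RELB* (ENSG00000104856, chromosome 19 from 45001430 to 45038198), which encodes its partner, was at 13.2, 11.8 and 13.1 FPKM and at 15.9, 14.4 and 16.6 FPKM. Neither gene overlapped between the groups. The log2 fold change was 0.25 for *NFKB2* (95% confidence interval 0.16 to 0.35, limma adjusted p = 0.000784). For *RELB* it was 0.30 (0.14 to 0.45, limma adjusted p = 0.00475). Both rises were small beside those of other genes, exceeding 36.2% and 41.9% of tested genes in absolute log2 fold change.

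The subunits of the fast route and c-Rel did not pass the test. *NFKB1* (ENSG00000109320, chromosome 4 from 102501329 to 102617302), which encodes p105 and p50, was at 13.99, 13.57 and 13.46 FPKM in TPC-1 and 13.998, 13.05 and 14.38 FPKM in *RRM2*-OE-TPC-1. The groups overlapped fully, with a log2 fold change of 0.01 and a 95% confidence interval of -0.09 to 0.12 (limma adjusted p = 0.813), which ends below the estimate for *NFKB2*. *RELA* (ENSG00000173039, chromosome 11 from 65653596 to 65663094), which encodes the transactivating subunit p65, was at 17.3, 16.2 and 17.0 FPKM in TPC-1 and 17.5, 17.9 and 20.3 FPKM in *RRM2*-OE-TPC-1. Its groups were adjacent without overlap, and 1 library, *RRM2*-OE-TPC-1 replicate 3, stood above the rest. The log2 fold change of *RELA* was 0.14 (95% confidence interval -0.01 to 0.28, limma adjusted p = 0.0802), an interval that reached past the estimate for *NFKB2*. Of 13 alternatives *RELA* passed in 2, with voom on recovered reads (limma adjusted p = 0.0202) and without *RRM2*-OE-TPC-1 replicate 1 (0.0412). Without replicate 3 its log2 fold change was 0.07 (limma adjusted p = 0.246), and scaled to library totals it was 0.08 (0.257).

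*REL* (ENSG00000162924, chromosome 2 from 60881521 to 60931610) encodes c-Rel, a subunit best known from lymphocytes. It was at 0.723, 0.980 and 0.905 FPKM in TPC-1 and at 0.867, 0.807 and 0.882 FPKM in *RRM2*-OE-TPC-1, with overlapping groups and a log2 fold change of -0.02 (95% confidence interval -0.36 to 0.32, limma adjusted p = 0.919). This interval is the widest among the subunits. Since 43.3% of the exon bases of *REL* are shared with *AC010733.2* on the same strand, which is listed at 0, its level is uncertain.

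*NFKBIA* (ENSG00000100906, chromosome 14 from 35401511 to 35404749) encodes IkBα. Its FPKM was 17.2, 14.4 and 16.4 in TPC-1 against 15.4, 15.1 and 15.4 in *RRM2*-OE-TPC-1. The *RRM2*-OE-TPC-1 libraries lay within the range of TPC-1, and the log2 fold change was -0.06 (95% confidence interval -0.21 to 0.08, limma adjusted p = 0.403). Without TPC-1 replicate 2, the lowest of its group, it was -0.14 and passed (limma adjusted p = 0.0281), the only one of 13 alternatives in which it did, and without TPC-1 replicate 1 it was -0.0086 (0.909). *NFKBIZ* (ENSG00000144802, chromosome 3 from 101827991 to 101861022) encodes IkBζ, a nuclear IkB protein that works as a cofactor at part of the target genes. It was at 18.2, 20.6 and 17.0 FPKM in TPC-1 and at 15.6, 16.3 and 16.9 FPKM in *RRM2*-OE-TPC-1, so that the groups nearly touched. *NFKBIZ* fell by 0.19 on the log2 scale (95% confidence interval -0.35 to -0.02, limma adjusted p = 0.0437), and the call was lost without TPC-1 replicate 1 or 2 or *RRM2*-OE-TPC-1 replicate 1 or 2, with limma adjusted p between 0.0718 and 0.117. Its log2 fold change was -0.20 and -0.11 without TPC-1 replicates 1 and 2, and -0.16 and -0.19 without *RRM2*-OE-TPC-1 replicates 1 and 2.

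*BIRC3* (ENSG00000023445, chromosome 11 from 102317450 to 102339403) encodes cIAP2, a ubiquitin ligase of the TNF receptor complex. It was at 6.70, 8.94 and 7.60 FPKM in TPC-1 and at 9.84, 9.12 and 9.83 FPKM in *RRM2*-OE-TPC-1. TPC-1 replicate 2 lay close below the lowest *RRM2*-OE-TPC-1 library. *BIRC3* rose by a log2 fold change of 0.31 (95% confidence interval 0.09 to 0.54, limma adjusted p = 0.0200), and the call was lost without TPC-1 replicate 3 (limma adjusted p = 0.0504), *RRM2*-OE-TPC-1 replicate 1 (0.0537) or replicate 3 (0.0538). In these settings its log2 fold change stayed at 0.31, 0.30 and 0.30. It was 0.22 without TPC-1 replicate 1 and 0.42 without TPC-1 replicate 2, and passed in both. Thus of the 5 feedback genes 4 passed the adjusted p, where 67.6% of all tested genes did. Of these calls 2, those of *NFKBIZ* and *BIRC3*, were lost when certain single libraries were left out.

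**Figure D2:**
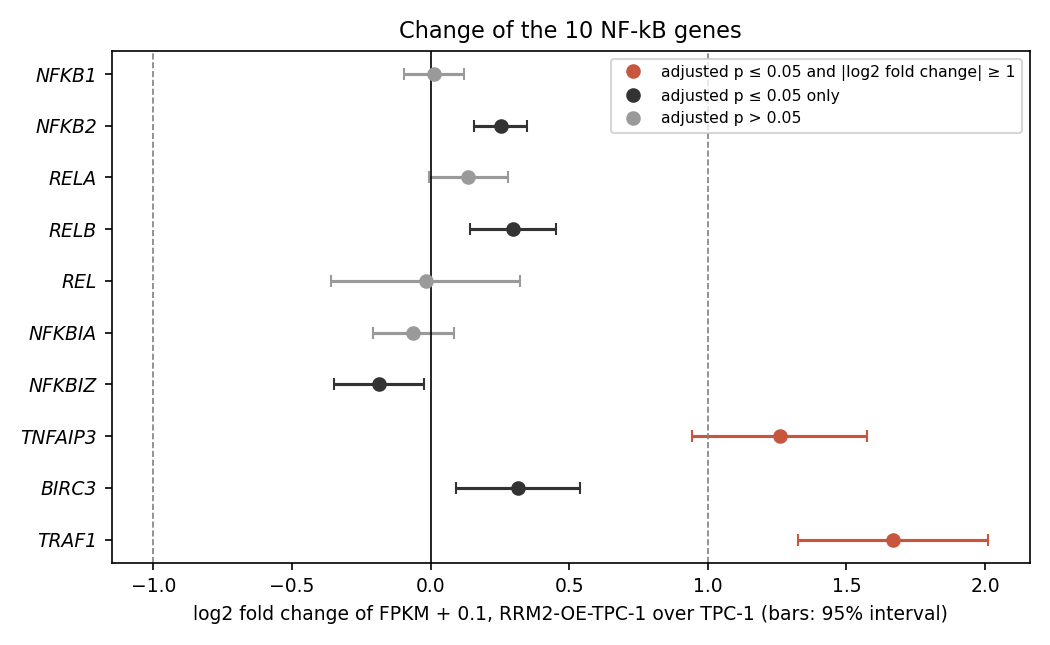
Log2 fold change (*RRM2*-OE-TPC-1 minus TPC-1) of the 10 members, with 95% confidence intervals and dashed lines at a change of 1 in either direction. Red points passed both thresholds, dark points the adjusted p alone and grey points neither; *TRAF1* at 1.67 and *TNFAIP3* at 1.26 lie beyond the line and the other 8 members lie between -0.19 and 0.31.

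Ratios and shares within a library do not depend on its scaling, and they are given as descriptions without a test. *NFKB2* over *NFKB1* was 1.37 ± 0.0449 in TPC-1 against 1.62 ± 0.0886 in *RRM2*-OE-TPC-1, each ratio here being a mean ± SD over 3 libraries. *RELB* over *RELA* was 0.753 ± 0.0221 and 0.844 ± 0.0570. The summed level of the 5 subunits, which does depend on the scaling, was 62.8 ± 2.24 FPKM in TPC-1 and 71.2 ± 2.91 FPKM in *RRM2*-OE-TPC-1. Within this sum *RELB* and *NFKB2* together made up 50.05% ± 0.769 in TPC-1 against 53.4% ± 1.20 in *RRM2*-OE-TPC-1. *REL*, whose level is uncertain, made up 1.39% and 1.20%. The share of the slower pair was thus higher in every *RRM2*-OE-TPC-1 library, by a few percentage points.

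Of inhibitor to subunit, *NFKBIA* over *RELA* was 0.949 ± 0.0510 in TPC-1 against 0.827 ± 0.0627 in *RRM2*-OE-TPC-1. *TNFAIP3* over *NFKBIA*, a ratio of 2 feedback genes, was 0.0512 ± 0.0130 and 0.135 ± 0.0127. These ratios moved in opposite directions, and neither overlapped between the groups. *TRAF1* over *TRAF2*, the paralog with which it pairs, was 0.0731 ± 0.0144 and 0.156 ± 0.0135, also without overlap. *BIRC3* over *BIRC2*, the neighbouring paralog that encodes cIAP1, was 0.512 ± 0.0724 and 0.534 ± 0.0293, and here the groups overlapped.

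**Figure D3:**
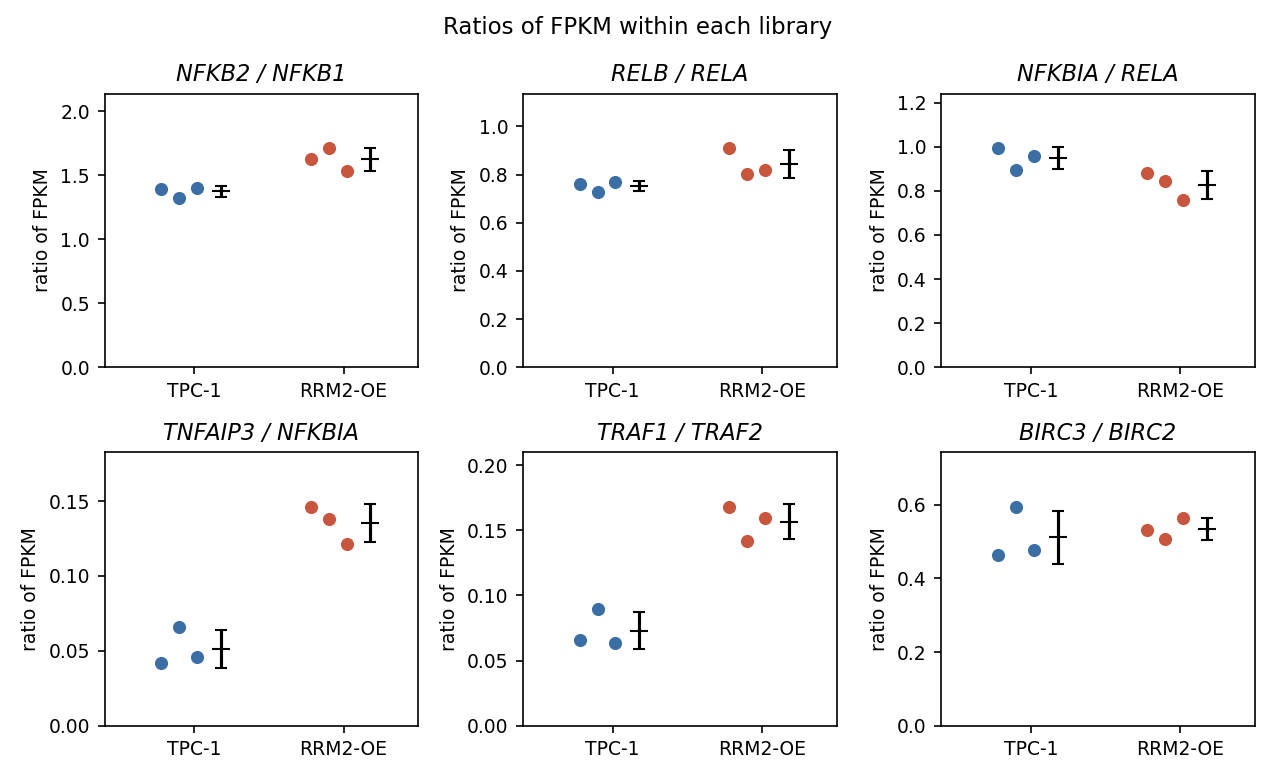
Ratios of FPKM between members or between a member and its paralog, a panel each with its own linear axis from 0, with a point for each library (TPC-1 blue, *RRM2*-OE-TPC-1 red) and, in black, each group mean with its SD. *TNFAIP3* over *NFKBIA* and *TRAF1* over *TRAF2* show the widest separation of the groups, and *BIRC3* over *BIRC2* overlaps.

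The rest of the pathway was read from 6 lists with 129 genes, of which 92 were tested. Past both thresholds were 7 higher and 9 lower, and at the adjusted p 33 were higher, 34 were lower and 25 did not pass. Over all tested genes the shares were 4.48% and 6.97% past both thresholds and 34.9% and 32.7% at the adjusted p. Of the 92 genes, *TLR5* and *LTB* reached the minimum in the libraries of 1 group only, so that they had to differ. The median log2 fold change of the 92 genes was -0.01. The lists were described by counts, with no test of a list.

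Of 12 tested receptors, 8 fell and 2 rose at the adjusted p, where 32.7% of all tested genes fell, and the median log2 fold change was -0.58. Past both thresholds 4 fell (6.97% of all genes), of which *TLR5* was tested through its TPC-1 values alone, and 3 when any TPC-1 library was left out. *IL1R1*, the receptor of IL-1, was at 22.2 ± 0.678 FPKM in TPC-1 and 3.87 ± 0.285 FPKM in *RRM2*-OE-TPC-1 (log2 fold change -2.49, limma adjusted p = 4.29e-08). *TNFRSF1A*, the main TNF receptor, fell by 1.14 on the log2 scale (limma adjusted p = 4.07e-07). *TLR5*, the receptor of flagellin, was at 1.30 to 1.48 FPKM in TPC-1 and at 0.256 to 0.364 FPKM in *RRM2*-OE-TPC-1, under the minimum in all 3 libraries of the latter. The other receptor past both thresholds was *IL18R1*, named after its values were seen, which fell by 1.11 on the log2 scale (limma adjusted p = 1.37e-05).

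Of the 30 tested kinases, adaptors and ubiquitin ligases, 9 rose and 8 fell at the adjusted p, against 34.9% and 32.7% of all genes. Their median log2 fold change was -0.04. The only one of the 30 past both thresholds, as 11.5% of all genes were, was *RBCK1*, a subunit of the linear ubiquitin ligase. It was at 66.4 ± 2.33 FPKM in TPC-1 and 29.7 ± 0.469 FPKM in *RRM2*-OE-TPC-1 (log2 fold change -1.16, limma adjusted p = 1.26e-07). Of the partners of the members, chosen after their values were seen, *TRAF2* rose by a log2 fold change of 0.67 and *BIRC2* by 0.25 (limma adjusted p = 5.07e-05 and 0.00189). The catalytic IKK subunits went opposite ways, with *CHUK* higher by 0.50 and *IKBKB* lower, at -0.25 (limma adjusted p = 1.55e-04 and 0.00546).

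Of the remaining inhibitors that were tested, none passed both thresholds, where 11.5% of all tested genes did. Of the other 4 IkB proteins, 2 rose and 1 fell at the adjusted p, against 34.9% and 32.7% of all tested genes. *BCL3*, a nuclear IkB protein that binds p50 and p52, was at 23.7 ± 1.07 FPKM in TPC-1 and 13.5 ± 0.581 FPKM in *RRM2*-OE-TPC-1 (log2 fold change -0.81, limma adjusted p = 2.92e-06). *NFKBIB*, which encodes IkBβ, rose from 8.07 ± 1.06 to 13.1 ± 0.457 FPKM (log2 fold change 0.70, limma adjusted p = 1.81e-04). *NFKBIA*, in contrast, did not pass, so the IkB genes did not move together. Of 14 tested inhibitors of other kinds, 7 rose and 4 fell, beside the same shares of all tested genes. The largest rise was that of *PDLIM2*, which acts on nuclear RelA (log2 fold change 0.83, limma adjusted p = 3.62e-05). *NKRF*, a repressor, rose by 0.36 (limma adjusted p = 0.00732), but 21.0% of its exon bases overlap *UBE2A* on the opposite strand, and its level is uncertain. *SIGIRR*, a receptor-like inhibitor named after its values were seen, was too low to be tested, with 4, 5 and 1 reads in TPC-1 and 21, 30 and 26 reads in *RRM2*-OE-TPC-1, and it passed both thresholds without the filter (limma adjusted p = 0.00435).

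Only 2 of 13 ligands were abundant enough to be tested. *LTB*, the membrane-bound lymphotoxin chain, was counted with 3, 1 and 7 reads in TPC-1 and 12, 24 and 22 reads in *RRM2*-OE-TPC-1. It was tested through its *RRM2*-OE-TPC-1 values alone (log2 fold change 1.93, limma adjusted p = 0.00243), and without any 1 of those libraries it was not tested. With a pseudocount of 1 its log2 fold change was 0.64. *TNFSF12*, named after its values were seen, was lower (log2 fold change -0.50, limma adjusted p = 6.26e-04). *TNF*, likewise named afterwards, had no read in TPC-1 and 1, 3 and 1 reads in *RRM2*-OE-TPC-1, too few for a comparison. *IL1A*, also named afterwards and not tested, had 0, 0 and 1 reads in TPC-1 and 11, 12 and 10 reads in *RRM2*-OE-TPC-1, and without the filter it passed both thresholds (limma adjusted p = 0.00165).

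Of the 45 genes known to be induced by NF-kB, members left out, 30 were tested. At the adjusted p 12 rose and 12 fell, and past both thresholds 6 were higher and 4 lower, with a median log2 fold change of 0.05. The shares of all tested genes were 34.9% and 32.7% at the adjusted p and 4.48% and 6.97% past both. The highest rises were those of *SAA1*, an acute-phase protein (15.5 ± 2.79 to 46.0 ± 1.95 FPKM, log2 fold change 1.58), the chemokine gene *CCL5* (1.46) and the cytokine gene *IL6* (1.26), with limma adjusted p of 8.69e-06, 4.14e-04 and 5.28e-06. In the other direction stood *CX3CL1* (log2 fold change -2.18) and *CXCL2* (-1.55), which encode chemokines, and *C3* (-1.53), which encodes the central complement protein, with limma adjusted p of 1.59e-05, 1.14e-05 and 2.17e-08. *SAA1* and *CXCL2* have close paralogs whose reads counting could split, and 20.7% of the exon bases of *IL6* overlap *AC073072.1* on the opposite strand, so these values are uncertain. *CSF2* and *BCL2A1*, named after their values were seen, had too few reads to be tested. Without the filter both passed both thresholds, higher in *RRM2*-OE-TPC-1 (log2 fold change 2.82 and 1.81, limma adjusted p = 0.00226 and 0.00778). In that setting 12 induced genes passed both, against 10.

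**Figure D4:**
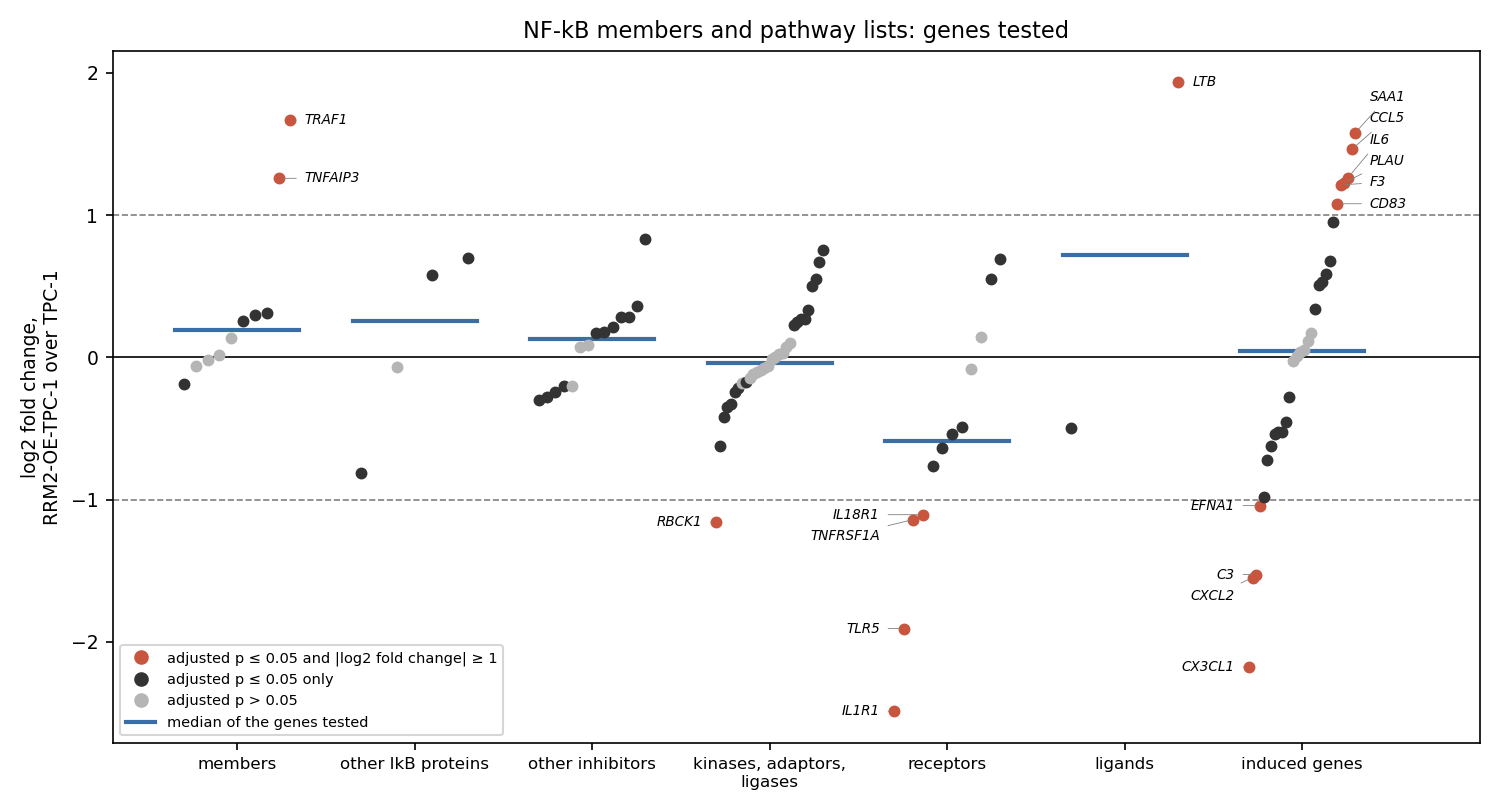
Log2 fold change (*RRM2*-OE-TPC-1 minus TPC-1) of each tested gene of the members and of the 6 pathway lists, with a blue line at the median of each, dashed lines at a change of 1, and the genes past both thresholds in red and labelled. The receptors have a median of -0.58, and the induced genes spread to both sides of 0.

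To see which genes had a pattern most like that of the 2 members past both thresholds, log2(FPKM + 0.1) was correlated over the 6 libraries with 10548 protein-coding genes. Among the nearest to *TNFAIP3* was *ESF1* (Pearson r = 0.999), and nearest to *TRAF1* were *RBM17* and *POLR3B* (r = 0.998 each). The points share the difference between the groups, and 1997 genes for *TNFAIP3* and 2192 for *TRAF1* exceeded an r of 0.95, so these neighbours are not particular to the members.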

How the data were processed

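RNA sequencing measured 6 libraries of cultured cells, 3 a group. After trimming (fastp), alignment (HISAT2 2.0.5) and counting per gene (featureCounts 1.5.0), the authors divided counts by gene length and depth and deposited FPKM values. The build in the submitters' processing notes is GRCh38.p14, and all 58735 identifiers and positions were those of GENCODE 29. Of the symbols, 12 were restored through identifiers. The labels describe rRNA removal with RNase R digestion and the methods poly(A) selection, which differ in the transcripts they retain. The kit was directional, but whether counting used strand is not given in the sources used here.

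Whole reads were recovered from the FPKM steps (100.0% of values whole within 0.01). Genes with at least 0.5 FPKM and 10 reads in 3 libraries were tested on the scale log2(FPKM + 0.1) by limma 3.58.1 in R 4.3.3 (lmFit, then eBayes with a variance trend) and Benjamini-Hochberg adjustment. The study's own test was DESeq2 1.20.0, whose results were not used. The rest was done in Python 3.11.15 (matplotlib 3.10.9, scipy 1.17.1, pandas 2.3.3, numpy 2.4.6). The fit was also run on simulated reads with the same spread setting for every gene, and no result here rests on that run. Alternatives were pseudocounts of 1 and 0.01, no filter, 2 scalings, voom, a replicate block, each library left out, and a test of a change above 1.

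The members and lists were chosen with earlier results of these data known. Named are *RRM2*, the members, and, in each pathway list, up to 3 genes a direction with the largest change past both thresholds or else the 2 largest at the adjusted p, with genes overlapping a member and the 2 protein-coding genes most correlated with each member past both thresholds. Others were named after their values were seen. A few genes that the rule or the marker lists hold are not reported here. Promoter sequences are from RefSeq.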

Additional observations from a re-analysis of the deposited data

How the results depend on the processing

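With a pseudocount of 1, 716 of all genes, 1 member and 9 pathway genes passed both thresholds, and with a test of a change above 1 the numbers were 618, 1 and 8, against 1560, 2 and 16. The loss of calls follows from how both settings are built, since the first shrinks the changes of low genes and the second asks for more. In the latter, *TRAF1* remained (limma adjusted p = 0.026). The calls of *TRAF1*, *TNFAIP3*, *NFKB2* and *RELB* at the adjusted p held in all 13 alternatives run on single genes, with log2 fold changes of 1.07 to 1.78, 0.76 to 1.37, 0.20 to 0.28 and 0.24 to 0.36. *NFKB1* turned to -0.044 when scaled to library totals, where the median of all genes was -0.05 rather than 0.01. With each library left out in turn, *NFKB1* ranged from -0.016 to 0.053 and *REL* from -0.13 to 0.064, and neither passed the test. The number of members at the adjusted p was 4 without a filter, where *NFKBIZ* (0.121) and *BIRC3* (0.0691) were lost, 5 when scaled to library totals, where *BIRC3* was lost (0.0522), and 7 with voom, all p from limma. The cause of these lost calls was not tested. Libraries left out gave 1310 to 1473 genes past both thresholds, 8238 to 8639 at the adjusted p, 2 members past both and 5 to 6 at the adjusted p, and 14 to 16 pathway genes. Within TPC-1, replicate 2 was the highest library for 5 members and the lowest for 4, against 32.2% and 36.6% of all genes. Small differences of the members thus lean on this library. Same-numbered libraries did not pair: the correlations of their deviations were -0.0105, -0.00602 and -0.0550, and no library correlated best with its own number. With the replicate block, 8934 genes passed the adjusted p and 1566 both thresholds, and 5 members passed, *NFKBIZ* being lost (0.0524). Depth limits *TRAF1*, *TNFAIP3* and *REL*, the members with the fewest reads.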
